A study of Mus musculus with 2 samples.

Results

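The 6 genes described here encode the proton pump of the gastric parietal cell and the potassium channels that serve it: Atp4a, Atp4b, Kcnq1, Kcne2, Kcnj15 and Kcnj16. They were taken by symbol from a list, and all 6 were found among the 43346 mouse genes of the tables, with 34 of 129984 transcripts. The only group is the stomach of adult C57BL/6J mice, an inbred laboratory strain, aged 8 weeks and carrying no label of a treatment or an engineered allele. Each of the 2 libraries, called replicates 1 and 2, was made from pooled males and females. They hold polyadenylated RNA longer than 200 nucleotides, depleted of ribosomal RNA and with spike-ins added, read as strand-specific pairs of 76 nucleotides. The labels name separate tissue samples but the same donor record, so the spread between the replicates may be partly technical. With 1 group there is no contrast between conditions, and no p-value was computed.

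The H,K-ATPase is the pump that acidifies the stomach. It uses ATP to move protons out of the parietal cell into the gland lumen in exchange for potassium, and works as a pair of a catalytic alpha subunit and a glycosylated beta subunit. The potassium it takes up must first reach the lumen, through channels of the apical membrane, so that pump and channel act as a cycle. A channel of the pore subunit Kcnq1 with the accessory subunit Kcne2 is the one best known for this task, and inward rectifiers of the Kir family are also found in parietal cells.

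Replicate 1 held 52363597 and replicate 2 held 62452468 estimated read pairs, and the 6 genes took 0.645% and 0.385% of those on mouse genes. The libraries differed in composition: the chief cell product Pgc and the lipase cofactor Clps together held 29.6% of all transcripts in replicate 1 and 42.7% in replicate 2. Values are in TPM, the share of a library's transcripts that a gene holds after division by length, unless said otherwise. Since TPM is a share, the level of every other gene moves when such abundant genes do. In whole stomach, fewer cells of a type and less RNA per cell cannot be told apart.

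The pump subunits were abundant, and the channel subunits were expressed at far lower levels. Atp4a, the catalytic subunit (ENSMUSG00000005553, chromosome 7, 30712209 to 30725534 on mm10, plus strand), was at 2697 TPM in replicate 1 and at 1389 TPM in replicate 2. Its mean was 2043 ± 924 (SD, n = 2), and it ranked 26 of 21474 protein-coding genes. Atp4b, the beta subunit that is needed for the pump to fold and reach the membrane (ENSMUSG00000031449, chromosome 8, 13386205 to 13396825, minus strand), had 2272 in replicate 1 and 1320 in replicate 2. Its mean was 1796 ± 673 (SD, n = 2), and it ranked 30. Both subunits were higher in replicate 1, and their ranges overlapped across the replicates.

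Kcnq1, the pore-forming subunit of a voltage-gated potassium channel (ENSMUSG00000009545, chromosome 7, 143106362 to 143427042, plus strand), was at 47.1 TPM in replicate 1 and at 23.9 TPM in replicate 2. Its mean was 35.5 ± 16.4 (SD, n = 2), at rank 2021. Kcne2, a small accessory subunit with a single membrane span with which Kcnq1 forms a channel that stays open in acid (ENSMUSG00000039672, chromosome 16, 92292389 to 92298129, plus strand), had 10.6 in replicate 1 and 6.78 in replicate 2, a mean of 8.68 ± 2.68 (SD, n = 2). Both channel partners were higher in replicate 1, as the pump subunits were.

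The inward rectifiers went the other way. Kcnj15 (ENSMUSG00000062609, chromosome 16, 95257558 to 95300260, plus strand) was at 10.6 TPM in replicate 1 and at 15.4 TPM in replicate 2, a mean of 13.0 ± 3.43 (SD, n = 2). Kcnj16 (ENSMUSG00000051497, chromosome 11, 110968033 to 111027968, plus strand), a subunit that conducts mainly when joined to another Kir subunit, had 6.10 and 7.46, a mean of 6.78 ± 0.962 (SD, n = 2). Both were higher in replicate 2.

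By mean TPM the order was Atp4a, Atp4b, Kcnq1, Kcnj15, Kcne2 and Kcnj16. The replicate ranges of Atp4b and Kcnq1 did not overlap, and Atp4b was higher by 48.2-fold in replicate 1 and 55.3-fold in replicate 2. Kcnq1 also stood apart from Kcnj15, by 4.46-fold and 1.55-fold. The neighbours Atp4a and Atp4b, Kcnj15 and Kcne2, and Kcne2 and Kcnj16 did not differ beyond their spread. All 6 were at or above 1 TPM in both replicates, as were 48.9% of all protein-coding genes. The depth was ample for each of them: 3 read pairs would have given a TPM of at most 0.0466 for any member in either replicate, and the lowest count was 697 pairs, that of Kcne2 in replicate 2. The posterior standard deviation of the gene counts was at most 0.93 read pairs, so reads shared with other genes left little error in them.

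**Figure D1:**
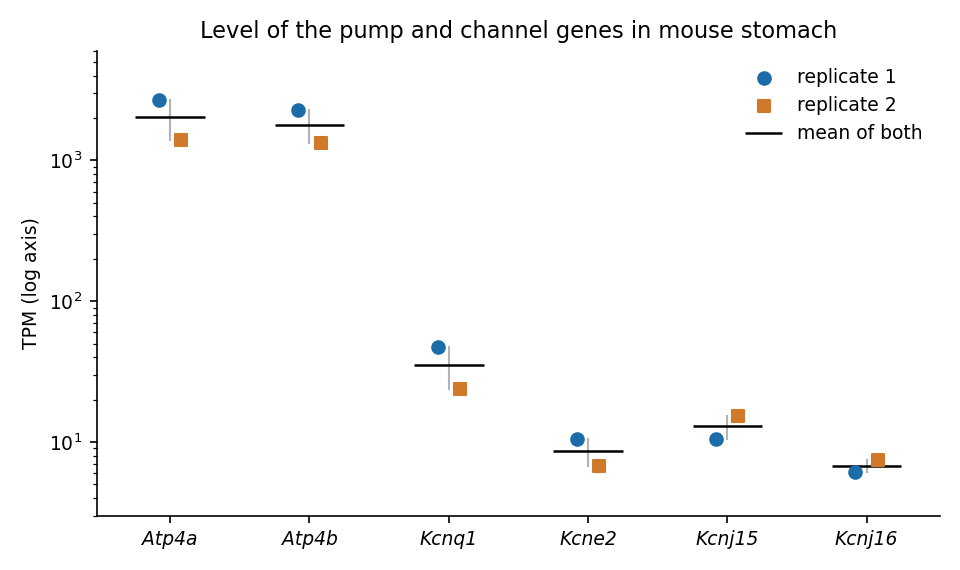
TPM on a log axis for each of the 6 genes, with replicate 1 as circles, replicate 2 as squares and their mean as a bar. The pump subunits sit between 1320 and 2697 and the channel subunits between 6.10 and 47.1, and only Kcnj15 and Kcnj16 are higher in replicate 2.

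The level of Atp4a rested on a short transcript. Of the 5 transcripts of the gene, Atp4a-202 (ENSMUST00000165410), annotated as a retained intron and 738 bases long, held 78.8% of the gene's TPM in replicate 1 and 73.0% in replicate 2. The full-length coding transcripts Atp4a-201 (3498 bases) and Atp4a-204 (3447 bases) had 362 and 209 TPM in replicate 1, and 272 and 101 TPM in replicate 2. Counted in read pairs the short transcript was no longer dominant, with 37.7% and 31.1% of the gene's pairs. It shares introns 17 to 21 with the coding transcripts and, at 738 bases, holds only part of exon 22. At its start it has 104 bases of intron 16 that lie directly before exon 17. These bases are shown in capitals, followed by the start of exon 17 in lower case, because the coding transcripts splice them out (chr7:30722388-30722527 on mm10, plus strand, from the GENCODE M21 transcript).
Start of Atp4a-202: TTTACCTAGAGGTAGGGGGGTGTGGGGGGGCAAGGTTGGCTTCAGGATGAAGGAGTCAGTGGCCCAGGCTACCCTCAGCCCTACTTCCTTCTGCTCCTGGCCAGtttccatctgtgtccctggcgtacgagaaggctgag

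In the M21 annotation the coding transcripts differ from each other at the start of exon 1, at the end of exon 22 and inside exon 14. There Atp4a-204 uses a splice donor 27 bases upstream of the one used by Atp4a-201, which removes the bases in capitals and leaves an intron of 126 bases instead of 99 (chr7:30720311-30720367 on mm10, plus strand).
End of exon 14 of Atp4a-201: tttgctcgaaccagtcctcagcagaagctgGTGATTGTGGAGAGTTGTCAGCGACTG
The quantifier gave Atp4a-204 36.6% of the TPM of these 2 coding transcripts in replicate 1 and 27.1% in replicate 2. In the junction table, which pools both libraries on mm9, the 99-base intron had 1197 reads and the 126-base intron was not listed.

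The junction table allowed the gene to be read without the transcript model. Its junctions were tied to introns by length and spacing, with no coordinates converted, and 21 of 23 annotated Atp4a introns were found. Within the short transcript, introns 17 to 21 had 12540 to 28940 reads, with a median of 15108. Intron 16, which only the full-length transcripts splice out, had 10911 reads, or 72.2% of that median. Over all 16 introns upstream of the short transcript the median was 3769 reads, 24.9% of it, with a range from 68 at intron 1 to 10911. Beside these, the full-length transcripts held 21.2% of the TPM that they and the short transcript had together in replicate 1 and 26.9% in replicate 2. The junction next to the short transcript thus gave full-length RNA a larger share than the quantifier did, whereas the median over the upstream introns gave a similar one.

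Reads along Atp4a were uneven. Introns 1, 2, 7, 14 and 15 had 68, 856, 702, 1197 and 1085 reads, while introns 9 and 11 had 9709 and 10129. In the contig table, which lists stretches of continuous coverage on mm9, exons 1 and 2 lay in a contig with a signal of 5.54, exon 4 in one of 172, exons 9 to 16 in one of 116, exons 17 to 21 in one of 400 and exon 22 in one of 241. The contig over exons 17 to 21 was 2908 bases long, ran through the introns between its exons and covered the 104 bases that mark the short transcript. It also covered 323 bases of intron 16 upstream of the annotated start of that transcript. Contigs over exons 5 to 8 and 9 to 16, of 1968 and 5115 bases, likewise ran through the introns between their exons. So did a contig of 2771 bases over exons 3 to 6 of Atp4b. Whether the coverage at the start of Atp4a-202 came from that transcript or from unspliced RNA was not tested.

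Atp4b gave a simpler picture. It had 1 quantified transcript, Atp4b-201 of 1327 bases, and all 6 of its introns were found in the junction table. From the first intron to the last they had 8551, 9141, 10954, 1651, 8936 and 11199 reads, with a median of 9039. Intron 4 stood apart as the low one, and the others lay between 8551 and 11199. Junctions inside the gene that match no annotated intron took 0.466% of its junction reads, against 0.318% in Atp4a.

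These assignments set the ratio of the pump subunits. On gene TPM, Atp4a exceeded Atp4b by 1.19-fold in replicate 1 and 1.05-fold in replicate 2. On read pairs per kilobase of the longest coding transcript the direction turned, and the ratio was 0.447 in replicate 1 and 0.452 in replicate 2. With TPM of protein-coding transcripts only it was 0.251 and 0.282. The median junction reads, 5776 for Atp4a and 9039 for Atp4b, were also lower for the catalytic subunit. The means lay closer, at 7615 and 8405, and introns 17 to 21 of Atp4a each had more reads than any Atp4b intron. The order of the 2 subunits thus turned with how reads of the short Atp4a transcript were counted.

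**Figure D2:**
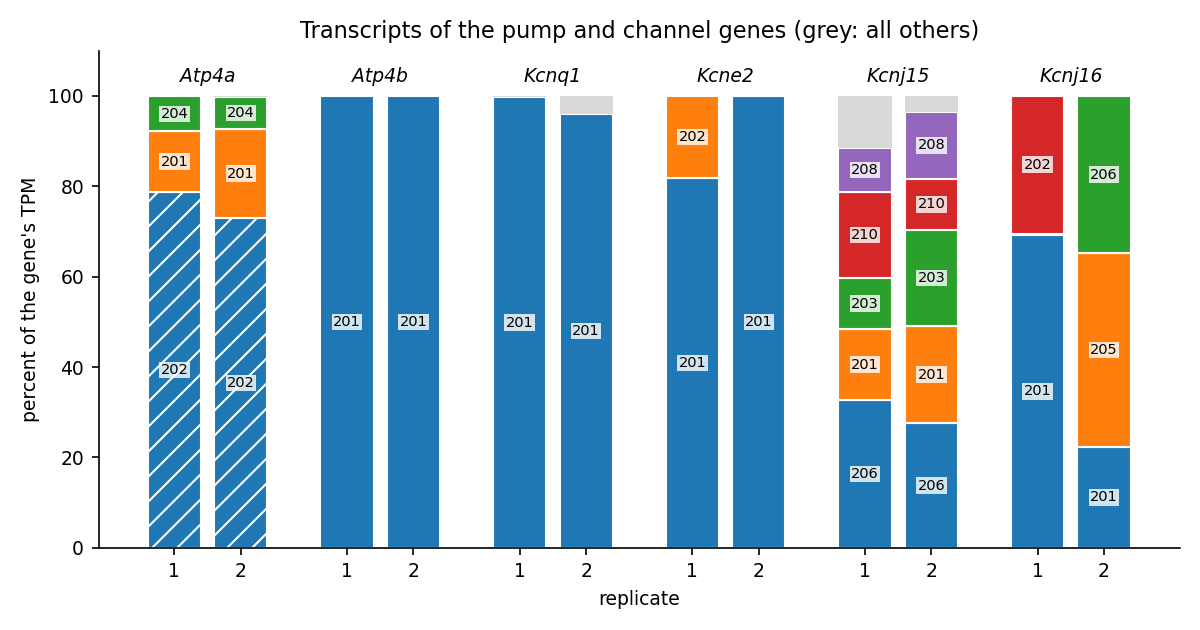
Percent of each gene's TPM held by its transcripts in replicates 1 and 2, with transcript numbers in the bars, hatching for the retained-intron transcript and grey for transcripts with a mean share under 5%. Atp4a-202 holds 78.8% and 73.0% of Atp4a, Kcnq1 and Atp4b have 1 leading transcript, and Kcnj16-201 goes from 69.2% to 22.4% of Kcnj16.

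On TPM Kcnq1 was assigned almost wholly to its full-length form. Kcnq1-201, of 3029 bases, held 99.7% of the gene's TPM in replicate 1 and 96.0% in replicate 2. On posterior mean TPM its shares were 84.6% and 69.2%, with most of the rest on Kcnq1-204 and Kcnq1-205, transcripts of 196 and 182 bases to which no read pairs were counted. All 15 of its introns were listed as junctions, with a median of 238 reads and 1066 at the first intron, which is 41756 bases long. Reads were fewest at intron 9, with 1, and at intron 13, with 27, while the neighbours of intron 9 had 157 and 88. The contig over exon 10, which follows intron 9, had a signal of 1.33, against 13.3 over exon 9 and 12.6 over exon 11. Junctions inside the gene that match no annotated intron numbered 16, with 72 reads in all and at most 11 each. Whether any of them joins exon 9 directly to exon 11 was not tested. A junction of 164533 bases that joins exon 11 to exon 16, as in Kcnq1-202, had 13 reads, and the 5 junctions of Kcnq1-201 over the same stretch had 27 to 556. Kcnq1ot1, the noncoding RNA transcribed from the opposite strand inside Kcnq1 and known for imprinting of this region, had 239 and 729 read pairs, or 0.05 and 0.13 TPM. It was low beside Kcnq1 and, unlike Kcnq1, higher in replicate 2.

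**Figure D3:**
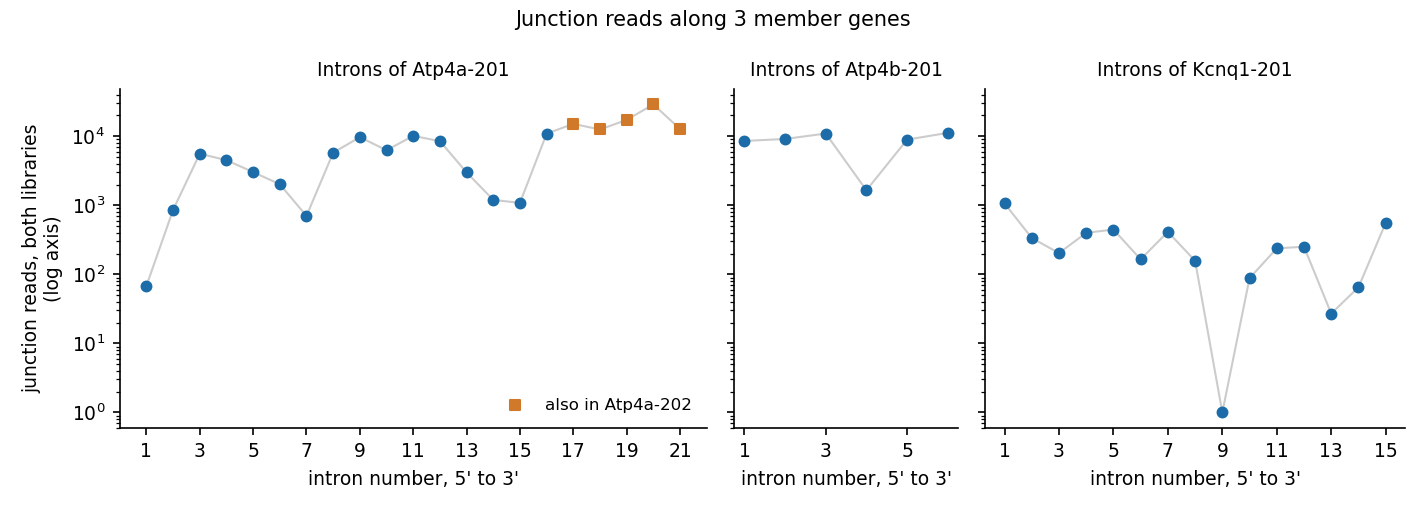
Reads per junction on a log axis, pooled over both libraries, against intron number from 5′ to 3′ for Atp4a-201, Atp4b-201 and Kcnq1-201. Squares mark Atp4a introns 17 to 21, which the short transcript also has, and the low points are Atp4a intron 1 with 68 reads, Atp4b intron 4 with 1651 and Kcnq1 intron 9 with 1.

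Kcne2 has 2 annotated starts that lead into the same exon with the whole coding sequence. Kcne2-201, from the upstream start, held 81.8% of the TPM in replicate 1 and 100% in replicate 2, and Kcne2-202, from the downstream start, held 18.2% and 0%. The posterior standard deviation of the Kcne2-202 count in replicate 1 was 43.0% of that count. The 4051-base intron of Kcne2-201 had the length of a single listed junction on its chromosome and strand, with 130 reads, and was tied by length alone. No junction with the 882-base intron of Kcne2-202 was listed. The windows around both starts are shown from RefSeq on GRCm38.p6, with 250 bases before the start in lower case and 50 bases from the start on in capitals (chr16:92292139-92292438 and chr16:92295366-92295665, plus strand).
Kcne2 upstream start: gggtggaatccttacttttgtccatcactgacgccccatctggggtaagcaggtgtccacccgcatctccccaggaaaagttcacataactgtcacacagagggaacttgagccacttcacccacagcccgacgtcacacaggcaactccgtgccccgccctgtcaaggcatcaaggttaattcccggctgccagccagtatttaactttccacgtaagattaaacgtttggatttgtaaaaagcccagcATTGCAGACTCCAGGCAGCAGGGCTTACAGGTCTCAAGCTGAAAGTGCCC
Kcne2 downstream start: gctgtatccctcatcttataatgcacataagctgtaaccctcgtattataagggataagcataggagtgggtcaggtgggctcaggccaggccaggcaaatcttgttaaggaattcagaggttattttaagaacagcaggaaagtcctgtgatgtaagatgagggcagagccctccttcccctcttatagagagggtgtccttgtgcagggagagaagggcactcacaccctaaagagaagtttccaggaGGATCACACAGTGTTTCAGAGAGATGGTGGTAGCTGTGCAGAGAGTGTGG
On both strands these windows were searched for the TATA box, TATAAA, which 13.6% of 32851 promoter windows of this length held. They were also searched for AGATAA, to which GATA factors bind, held by 11.2%. The last motif was AAGGTCA, to which estrogen-related receptors bind, held by 4.72%. Neither Kcne2 window held any of them. RefSeq windows were matched for 4 of the 6 genes, 8 windows in all, and 2, 2 and 1 of these held the motifs, all in Kcnj15 and Kcnj16.

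Kcnj15 was split over many transcripts. Of its 13, the leading one, Kcnj15-206, held 32.7% of the TPM in replicate 1 and 27.5% in replicate 2, and by mean share Kcnj15-201 and Kcnj15-203 followed, with 18.6% and 16.3%. In replicate 1 the second place went to the 784-base Kcnj15-210, with 19.0%. The longer transcripts differ in their first exons and in the donor of the last intron, where 2 sites lie 12 bases apart. The stretch is shown with those 12 bases in capitals (chr16:95291879-95291908 on mm10, plus strand, from exon 4 of Kcnj15-203).
End of that Kcnj15 exon: agattcctgacctacagaGTGAGTGACCAG
In the M21 annotation the choice of donor changes the start of the protein. Of the 6 transcripts spliced at the upstream donor 4, such as Kcnj15-201, are annotated with a coding sequence of 1206 bases that begins in this exon, and the other two, Kcnj15-210 and Kcnj15-212, with shorter ones of 519 and 161 bases. Those spliced at the downstream donor, such as Kcnj15-203, have one of 1125 bases that begins in the next exon, 27 codons shorter. The upstream donor had 83 junction reads and the downstream donor 94, so the upstream donor took 46.9% of 177 reads (95% exact binomial interval 39.4% to 54.5%, counting error only). Transcripts with the upstream donor held 78.4% of the gene's TPM in replicate 1 and 75.3% in replicate 2. The 4 of them with 1206 coding bases held 58.1% and 63.9%. Both donors were thus in use, and the quantifier gave transcripts with the upstream donor a larger share than the junction reads did. Of the long introns that lead into this exon, that of 33436 bases had 126 reads, that of 33359 bases 44 and that of 32854 bases 12.

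The transcripts of Kcnj16 were assigned differently in the 2 libraries. Kcnj16-201 held 69.2% of the TPM in replicate 1 and 22.4% in replicate 2. In replicate 2 Kcnj16-205 and Kcnj16-206 held 42.8% and 34.8%, after 0.327% and 0% in replicate 1, while Kcnj16-202 went from 30.4% to 0%. The posterior standard deviations of the Kcnj16-201 count were 26.2% and 41.3% of it, so these swings carry a large assignment error. None of the 5 annotated introns could be tied to a junction.

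Between the replicates the genes parted in opposite directions. On counts scaled by TMM, which matches libraries on the bulk of their genes, the log2 ratio of replicate 2 over replicate 1 was -0.77 for Atp4a (95% interval -0.78 to -0.76, counting error only). It was -0.79 for Atp4b (-0.80 to -0.77), -1.04 for Kcnq1 (-1.09 to -0.98) and -0.64 for Kcne2 (-0.78 to -0.49). Kcnj15 stood at 0.68 (0.61 to 0.75) and Kcnj16 at 0.29 (0.18 to 0.39). The pump and its Kcnq1 and Kcne2 channel were thus lower in replicate 2, and the inward rectifiers higher. No interval reached 0, but they leave out the variation between animals and preparations, which 1 library a side cannot give.

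Other genes differed between the replicates as well. Over the 6837 protein-coding genes averaging 5 TPM or more the median log2 ratio was -0.13, and the middle 95% ran from -1.32 to 0.67. By any amount, 4 of the 6 members were higher in replicate 1, as were 62.8% of these genes. At least 2-fold higher in replicate 1 was 1 member, Kcnq1, as were 5.89% of these genes. None of the 6 was 2-fold higher in replicate 2, as were 0.746%. Kcnq1 passed that limit under TMM but not after scaling to spike-ins, at -0.99, or on TPM with a pseudocount of 1, at -0.95. Within the distribution of these genes, the ratio of Kcnq1 was above that of 5.34% and the ratio of Kcnj15 above that of 97.6%. For Atp4b, Atp4a, Kcne2 and Kcnj16 these shares were 10.1%, 10.6%, 14.8% and 85.7%. Under TMM the Kcnj15 value alone lay outside the middle 95%, by a small margin. On TPM with a pseudocount of 1 the Kcnj15 ratio was 0.51, a scale for which the middle 95% was not computed.

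**Figure D4:**
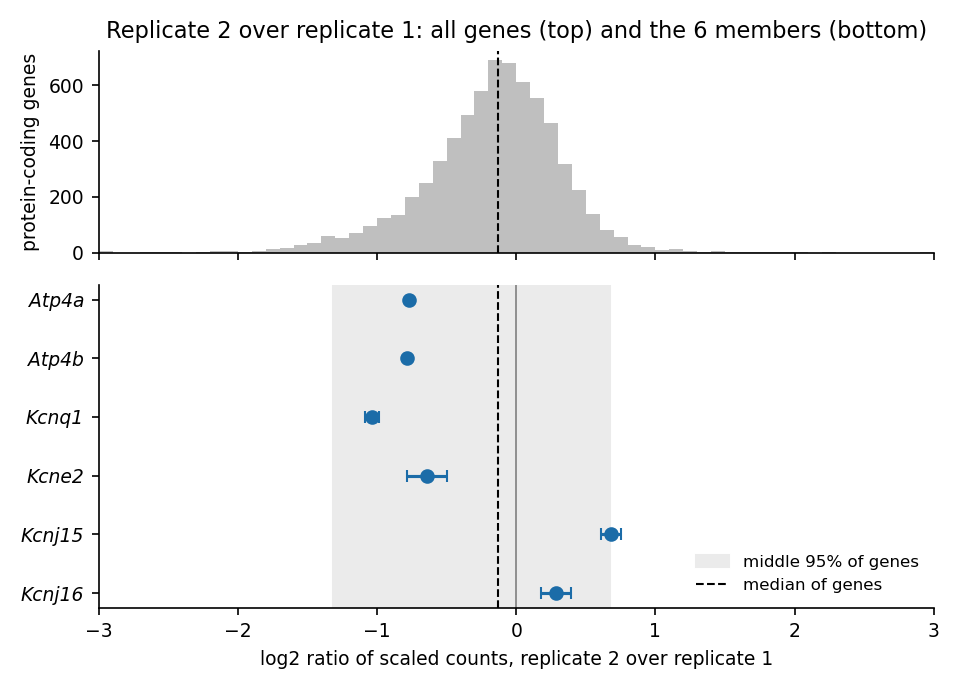
Top, number of protein-coding genes by log2 ratio of scaled counts, replicate 2 over replicate 1, for 6837 genes. Bottom, the ratio of each member with its 95% counting interval, on the middle 95% of those genes (shaded, -1.32 to 0.67), with their median (-0.13) dashed: 4 members lie to the left of the median and 2 to the right.

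Markers of gland cells moved between the replicates as well. Of the 18 genes on the parietal cell list 15 averaged 1 TPM or more. Of these, 12 were higher in replicate 1 and 3 in replicate 2, and the median log2 ratio was -0.19. Over the 11046 protein-coding genes averaging 1 TPM or more, 53% were higher in replicate 1 and 47% in replicate 2, with a median of -0.03. Over those averaging 5 TPM or more, 62.8% were higher in replicate 1, with a median of -0.13, nearer to that of the list. The median of the mean TPM over the 18 list genes was 33.5. The list's summed TPM was 8917 in replicate 1 and 6846 in replicate 2, led by Tff2 (4430 and 2853), Car2 (1854 and 1574), Ckb (878 and 554) and Gif (584 and 758), which other gastric cells also express. The 3 higher in replicate 2 were Gif, which is also on the chief cell list, Slc9a4 (24.5 and 55.6) and Esrrg (2.84 and 4.58). On scaled counts the log2 ratio of Slc9a4 was 0.59, a smaller difference than in TPM. The length used for its TPM was 1723 bases in replicate 1 and 1161 in replicate 2. Car2, Slc26a9 and Clic6 differed little, with log2 ratios of -0.05, -0.04 and -0.12. Hgf, at 0.03 in both, and Aqp4, at 0.46 and 0.32, were near 0. Of the chief cell list 4 of 5 measured genes reached a mean TPM of 1, and all 4 were higher in replicate 2, with a median of 0.54 and sums of 101987 and 149388 TPM. Lipf, on that list, had no reads. The 6 pit cell genes summed to 72975 and 71388 TPM, with 2 higher in replicate 1 and 4 in replicate 2. The part of cell composition in the members' ratios was not tested.

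The closest relatives of the pump differed widely in level, and some had almost no reads. Atp12a, the catalytic subunit of the nongastric H,K-ATPase, had 1 and 7 read pairs. Atp1b1, a beta subunit of the sodium pump, which sits on the basolateral side, had 101 and 87.5 TPM. Atp4b exceeded Atp1b1 by 22.4-fold and 15.1-fold on TPM. Atp1b3 had 56.1 and 28.3 TPM and was higher in replicate 1, as Kcnq1 was. Atp1b2 had 4.11 and 6.50. Atp1a4 had 2 and 20 read pairs and Atp1b4 none, which allows a TPM of up to 0.0130.

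On TPM the FXYD proteins, small regulators of the sodium pump, were led by Fxyd3 at 343 and 333. Fxyd1 had 130 and 116, Fxyd6 61.7 and 39.0, and Fxyd5 29.0 and 22.2. Fxyd7, at 3.65 and 7.33, and Fxyd2, at 2.88 and 3.04, were low, and Fxyd4 had 4 and 1 read pairs. Per kilobase of the longest coding transcript Fxyd3 had 2116 and 2551 read pairs and Fxyd1 4677 and 5235, so their order turned with the length used.

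Kcne2 was not the highest of the accessory subunits. The Kv7 pore subunits Kcnq3 and Kcnq5 were at or below 0.23 TPM in both replicates. Among the accessory subunits Kcne3, known as the Kcnq1 partner of intestinal and airway epithelia, had 16.2 TPM in replicate 1 and 21.8 in replicate 2. It was above Kcne2 in both, by 1.53-fold and 3.22-fold, but on read pairs per kilobase of the longest coding transcript only by 1.00-fold and 1.98-fold. Kcne1, known as the Kcnq1 partner of heart and inner ear, had 14.4 and 7.22 TPM. It stood 1.37-fold and 1.06-fold above Kcne2 on TPM, and at 0.552 and 0.417 of Kcne2 per kilobase of the longest coding transcript, so the order of these 2 turned with the length used. Its log2 ratio was -1.04, like that of Kcnq1. Kcne4 had 0.37 and 0.61 TPM and Kcne1l 0.39 and 0.13.

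Kcnj15 and Kcnj16 had the highest levels among the inward rectifiers. Kcnj8, a pore subunit of ATP-sensitive channels in vessels and smooth muscle, followed with 6.16 and 5.74 TPM, which overlapped the range of Kcnj16. Kcnj11, another ATP-sensitive channel subunit, had 2.15 and 2.57 and Kcnj12 1.46 and 1.95. Kcnj10, known as a partner of Kcnj16 in kidney and brain, had 0.23 and 0.16 TPM, from 68 and 58 read pairs. Kcnj13 had 0.47 and 0.32, Kcnj2 0.17 and 0.26, and Kcnj9 0.13 and 0.11, and Kcnj3, Kcnj4, Kcnj5 and Kcnj14 were at or below 0.10. Kcnj1, the renal outer medullary channel, and Kcnj6 had no reads, which allows a TPM of up to 0.0181 for Kcnj1 and 0.0198 for Kcnj6. Of these 13 genes 3 had 1 TPM or more in both replicates, against 48.9% of all protein-coding genes.

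**Figure D5:**
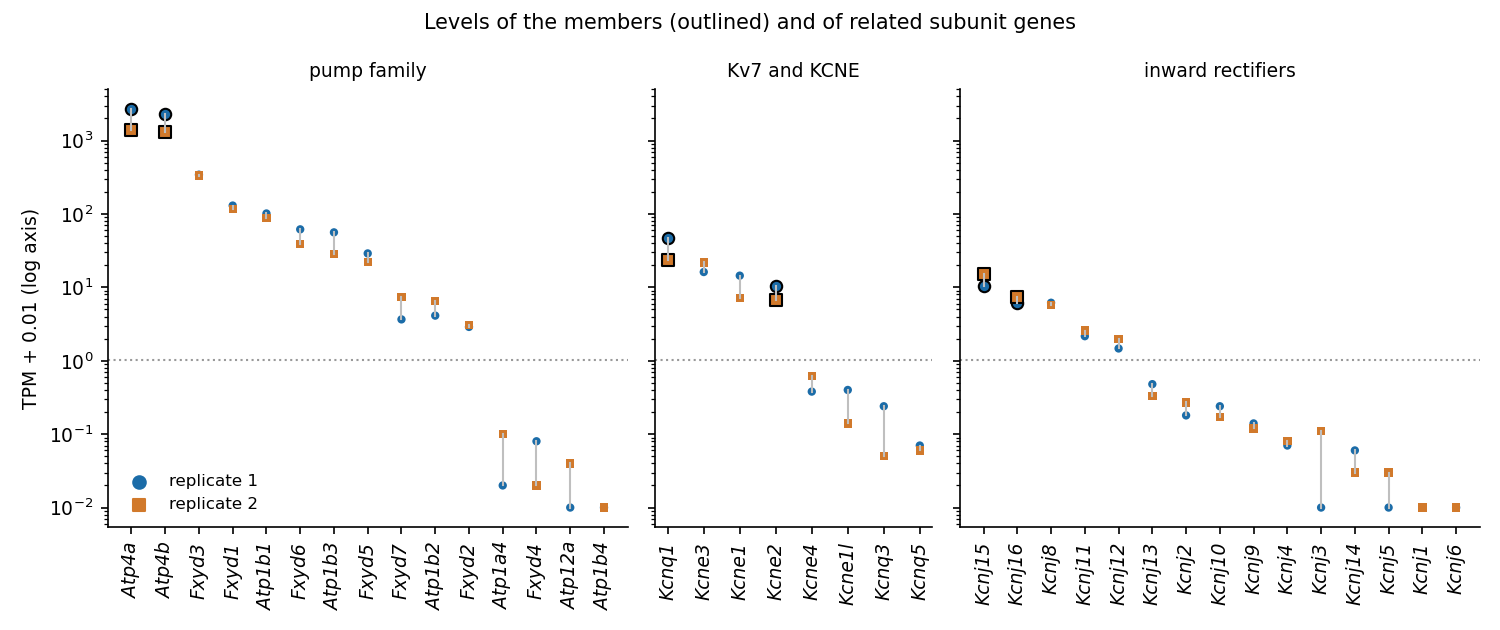
TPM plus 0.01 on a log axis for the members (outlined) and the related genes named in the text, with replicate 1 as circles, replicate 2 as squares and a dotted line at a TPM of 1. Atp4a and Atp4b are the highest of the pump genes shown, Kcnq1 of the Kv7 and KCNE genes shown and Kcnj15 of the inward rectifiers, while Kcne2 lies below Kcne3.

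Secretion of acid also needs chloride, bicarbonate exit, membrane traffic and receptors, and the lists for these differed in how many genes were detected. Over all lists apart from the members, those of other cells, organs and neighbouring genes included, 80 of 121 genes, or 66.1%, had 1 TPM or more in both replicates, beside 48.9% of all protein-coding genes. Of 5 genes of the apical chloride path only Slc26a9 (32.5 and 32.5 TPM) and the intracellular channel protein Clic6 (22.4 and 20.8) did. Clcn5 had 0.84 and 1.38 and Cftr 0.12 and 0.16. Slc26a7, which is counted on the basolateral list as well, had 0.34 and 1.15, from 46 and 83 read pairs, with a log2 ratio of 0.56 on scaled counts. Of 10 basolateral and bicarbonate genes 8 did, among them the carbonic anhydrase Car2, the anion exchanger Slc4a2 (175 and 154) and the potassium-chloride cotransporter Slc12a7 (45.8 and 45.2).

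Of 16 genes of tubulovesicle traffic, the route by which the pump reaches the apical membrane, 14 reached that level. The small GTPase Rab25 had 221 and 200 TPM, the SNARE Vamp8 168 and 150, the actin-binding Lasp1 124 and 117 and the membrane linker Ezr 89.4 and 112.5. Of 6 receptors 5 did, at low levels: the prostaglandin receptor Ptger3 had 10.4 and 6.94 TPM, the somatostatin receptor Sstr2 7.80 and 6.80, the histamine receptor Hrh2 6.52 and 3.79 and the muscarinic receptor Chrm3 3.57 and 3.97. Casr had 0.13 and 0.23. On scaled counts all 5 were higher in replicate 1, with log2 ratios from -0.80 to -0.30, as were 53% of protein-coding genes averaging 1 TPM or more. Chrm3 was higher in replicate 2 on TPM, so its direction turned with the scale. Of 8 transcription factors of parietal or gastric epithelium 6 did, led by Gata4 (138 and 115), Esrra (112 and 78.1), Foxa2 (78.6 and 52.1) and Gata6 (67.6 and 41.6), with Ppargc1a at 0.49 and 0.35.

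Neighbours on the genome had varied levels. Tmem147, on the other strand beyond the end of Atp4a, had 119 and 91.4 TPM, and Smim11, next to Kcne2, 27.0 and 24.7. Further from Kcne2, Kcne1 and Rcan1 (8.40 and 5.84) overlapped its range. Tssc4 and Cdkn1c, near Kcnq1, had 61.0 and 50.3, and 22.5 and 18.5. Tmco3 and Tfdp1, near Atp4b, had 9.53 and 9.10, and 7.65 and 9.80. Kcnj2, the neighbour of Kcnj16, was below 1 in both.

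Of 12 genes that mark other organs where the members are expressed, 3 had 1 TPM or more in both replicates, beside 48.9% of all protein-coding genes. Of the kidney genes Slc12a1 had no reads, and Slc12a3, Umod and Aqp2 had at most 0.76 TPM. The heart genes Myh6, Myh7 and Nppa were at or below 0.09, but Tnni3, a troponin subunit, had 747 TPM in replicate 1 and 290 in replicate 2. The pancreatic enzyme genes Cel (5.67 and 7.32), Cela2a (3.50 and 5.81) and Cpa1 (0.20 and 0.41) were low beside the pump genes. The range of Cel overlapped that of the channel member Kcnj16 (6.10 and 7.46). The nearest protein-coding gene to each member in log2(TPM + 1) over the 2 libraries was Rps2 for Atp4a, Rps12 for Atp4b, Ubac2 for Kcnq1, Synm for Kcne2, Lama4 for Kcnj15 and Dcbld2 for Kcnj16. With 2 libraries this likeness says no more than that their levels were close.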

How the data were processed

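The authors deposited expected counts of read pairs per gene and transcript, and TPM values, as 1 table per library, made from transcriptome alignments on mm10 with GENCODE M4, per the README beside the tables. The quantifier and aligner were not given in the sources used here. Each table's posterior standard deviation of the count and the effective length, both treated here as scores, are given per the file headers, as is a posterior mean TPM. The authors deposited read counts per splice junction and a coverage signal per contig on mm9, pooled over both libraries. The score beside each junction was taken as a reproducibility value, although no source used here defines it.

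Symbols, transcript types and positions came from GENCODE M21 on the same build, matched for 98.0% of 43346 mouse genes. Spike-ins took 1.14% and 1.12% of the estimated counts. Levels are mean TPM ± SD over 2 libraries. Log2 ratios used expected counts rounded to whole numbers, TMM scaling in edgeR 4.0.16 with genes kept by filterByExpr, and a prior count of 2, with exact conditional binomial intervals at 95%, which cover counting error only. The scaling was tested on counts simulated from a single mean profile, with known changes in randomly picked genes. No shift like that of Pgc and Clps was built in, so its effect on the scaling was not tested. Junctions were tied to introns where at least 2 matched in length and spacing.

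The text names all members, the genes of the 3 families related to them, and of each other list the 4 genes of highest mean TPM and up to 2 below a TPM of 1, apart from some that are not reported here. Other list genes, such as those of other organs and of neighbouring positions, were named after their values were seen. The members and lists were chosen with earlier results of these data known.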

Additional observations from a re-analysis of the deposited data

How the results depend on the processing

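No paired analysis was possible because the study has a single group. The ratio of Atp4a to Atp4b, 1.12 as a mean of both libraries, fell below 1 on read pairs per kilobase of the longest coding transcript (0.449) and on TPM of protein-coding transcripts only (0.267), since both change how the short Atp4a transcript counts. Without replicate 1 or replicate 2 it was 1.05 and 1.19. The median of the members' mean TPM, 24.2, was 34.5 on the per-kilobase scale and 37.6 when the total excluded Clps and Pgc. The share of Atp4a-202, 75.9% of TPM, was 34.4% of expected counts. Intron 16 of Atp4a, at 72.2% of the median over introns 17 to 21, was at 63.0% of their mean. In all 7 alternative settings of the ratio 4 members were higher in replicate 1, and the median of all genes moved by at most 0.04 on the log2 scale. The order of the members was the same on posterior mean TPM, while Atp4b came before Atp4a per kilobase. Those 2 checks of the order were added after the data were seen. With limits of 0.5 and 5 TPM, 84 and 65 of the 121 list genes passed in place of 80, or 69.4% and 53.7%, beside 55.2% and 29.9% of all protein-coding genes. Depth did not limit any member's gene count. The junction reads of Kcnj15 and Kcne2 were few, and the Kcnj16 transcript shares carry the assignment errors given above.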
